A study of Homo sapiens with 6 samples.

Results

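The genes described here are 43 factors that carry out protein synthesis on cytosolic ribosomes, apart from the EIF4 group. They are the subunits of EIF3, EIF2 and EIF2B, the factors EIF1, EIF1AX, EIF1B, EIF5, EIF5A, EIF5B and EIF6, the pair DENR and MCTS1, the poly(A)-binding proteins and their partners, and the elongation and termination factors. They were chosen by gene symbol from a table of 60612 genes, and where a symbol had several rows the row with the highest mean level was used. All 43 symbols were found, and all 43 passed the filter on low values that left 13748 genes for testing.

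The study silenced EIF4G2 and asked what became of the messenger RNAs. A group of 3 libraries, siEIF4G2, came from cells given 50 nM of small interfering RNA against EIF4G2, and the other 3, siNC, from cells given 50 nM of control small interfering RNA. The cells are labelled Hep3B, a line from a human liver cancer, and no further allele, agent or time is labelled. EIF4G2, also called DAP5, is an EIF4G1 relative that cannot bind the cap-binding protein EIF4E.

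Initiation begins when EIF2, loaded with GTP and the initiator transfer RNA, joins the small ribosomal subunit together with EIF1, EIF1AX, EIF5 and the large EIF3 complex. The messenger RNA is recruited through its cap and through poly(A)-binding protein, the start codon is found, and EIF5B joins the subunits. EEF1A1 then delivers transfer RNAs and EEF2 moves the ribosome along, until ETF1 and GSPT1 release the protein and ABCE1 splits the ribosome.

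Levels are given as CPM, counts scaled to the same library total with edgeR's TMM factors, and as FPKM where different genes are compared, since FPKM is set per gene length. Errors are SD over 3 libraries per group. A gene is named as called, or as having risen or fallen, where edgeR's quasi-likelihood test gave a Benjamini-Hochberg adjusted p under 0.05 over all 13748 genes. No label ties the replicates to separate cultures, so the p-values measure the spread between these libraries only, which may be technical. An exact permutation test of a single gene cannot go below p = 0.1 with 3 libraries against 3. In bulk RNA, a change in the number of cells of a type and a change in RNA per cell cannot be told apart.

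Library totals lay between 63351653 and 72863628 counts, and the 43 genes together took 2.11% to 2.18% of them in siEIF4G2 libraries and 1.92% to 2.04% in siNC libraries. EIF4G2 itself read 178, 179.7 and 199.8 CPM in siEIF4G2 libraries, against 1103, 913 and 998 CPM in siNC libraries, 5.41-fold lower (log2 fold change -2.43, SE 0.088, edgeR adjusted p = 0.000207). Markers of the labelled tissue were near 0, since all 15 hepatocyte markers looked up averaged under 1 CPM and 11 of them, ALB and AFP among them, were listed at 0 counts in all 6 libraries. Their summed level was 0.124 to 0.363 CPM in siEIF4G2 libraries and 0.0597 to 0.248 CPM in siNC libraries. The 7 fibroblast and mesenchymal markers, with 0 of 7 listed at 0 throughout and COL1A2 averaging under 1 CPM, summed to 1328 to 1398 CPM in siEIF4G2 libraries and to 1244 to 1300.4 CPM in siNC libraries. They did not move one way: of 6 tested, COL3A1, LUM and DCN rose (log2 fold changes 0.35, 0.38 and 0.73), COL1A1 and PDGFRB fell (-0.43 and -1.19), and VIM was not called. The 5 epithelial markers, with 0 of 5 listed at 0 throughout, summed to 1977 to 2221 CPM in siEIF4G2 libraries and 2270.4 to 2324 CPM in siNC libraries, nearly all of it from KRT8 and KRT18. EPCAM, KRT19 and CDH1, 3 of the 5, averaged under 1 CPM. The 4 endothelial markers, with 0 of 4 listed at 0 throughout, summed to 3.33 to 4.12 CPM in siEIF4G2 libraries, against 10.1 to 10.9 CPM in siNC libraries, mostly CDH5. PECAM1, VWF and KDR, 3 of the 4, averaged under 1 CPM. Among leukocyte markers, PTPRC and CD3E were listed at 0 throughout, and CD68 averaged 21.5 ± 3.07 CPM in siEIF4G2 and 33.3 ± 2.96 CPM in siNC. Of 5 adipocyte markers, 3 were listed at 0 throughout, and their sums were 0 CPM in siEIF4G2 and 0.184 to 0.209 CPM in siNC libraries. The hepatocyte markers thus do not bear out the label Hep3B, on which the name of the cells rests here. The identity of the cells, and the part these markers play in the results below, were not tested.

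After silencing of EIF4G2, 14 of the 43 factors rose, 2 fell and 27 were not called. EIF5A and EIF1AX each rose by 1.63-fold and were called under all alternatives tried. DENR rose by 1.90-fold with all 6 libraries, but its log2 fold change of 0.93 was 0.59 without siEIF4G2 replicate 2, and its call was lost under 5 of 15 alternatives. The other 13 called genes changed by less than 1.3-fold. All 3 termination factors rose, against 15.9% of all tested genes, but GSPT1 lost its call under 9 of 15 alternatives and ETF1 under 5 of 16. The most abundant elongation factors EEF1A1, EEF2 and EEF1G were not called. The genes that fell were EIF2S1, the alpha subunit of EIF2, and EIF3I, a subunit of EIF3.

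Among all 13748 tested genes, 33.4% were called, with 15.9% higher and 17.6% lower, against 37.2% of the 43 factors, with 32.6% higher and 4.65% lower. The share called in either direction was thus near the background. The factors lie in the upper range of levels, where more genes were called. With at least 5 FPKM required in 3 libraries, 45.0% of 6626 genes were called, 1483 of them higher. In that fit 16 of 42 factors were called, 14 of them higher. The members' median log2 fold change was 0.12, against 0.0075 over all tested genes, and the median size of the change regardless of sign was 0.16, against 0.26. Of the 43, 3 were called with a change of at least 1.5-fold, and over all genes 12.1% were. The 3 values of one group lay wholly on one side of the other group's for 21 of the 43 factors, 16 higher and 5 lower, and for 50.6% of all tested genes.

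**Figure D1:**
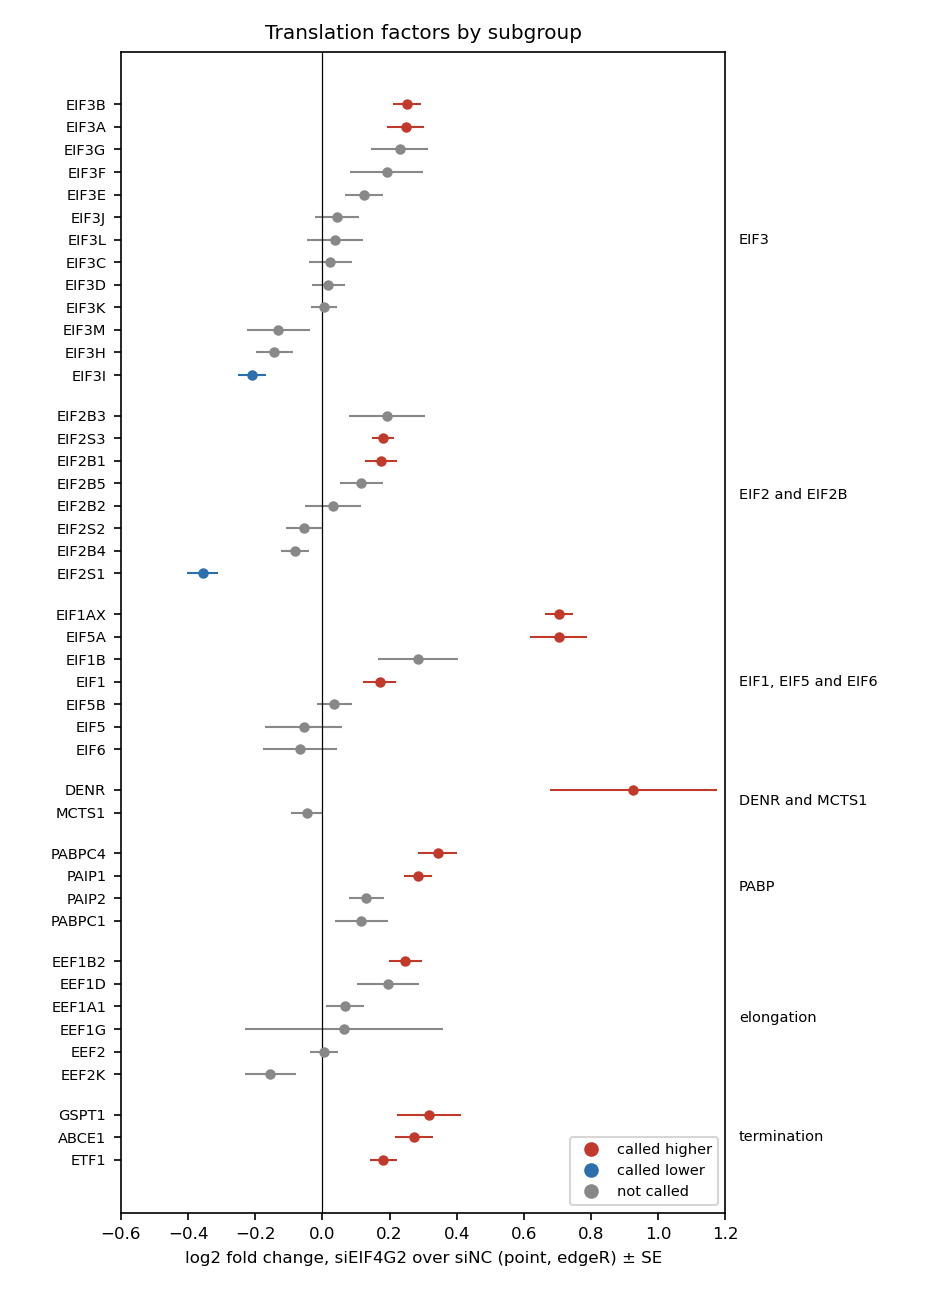
Log2 fold change of each of the 43 factors, siEIF4G2 over siNC, on the horizontal axis, by subgroup; points are edgeR estimates from 3 libraries per group, bars are ± 1 SE, and colours mark adjusted p under 0.05. EIF1AX, EIF5A and DENR stand to the right of all others, EIF2S1 and EIF3I are the called genes left of 0, and EEF1G has the widest bar.

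**Figure D2:**
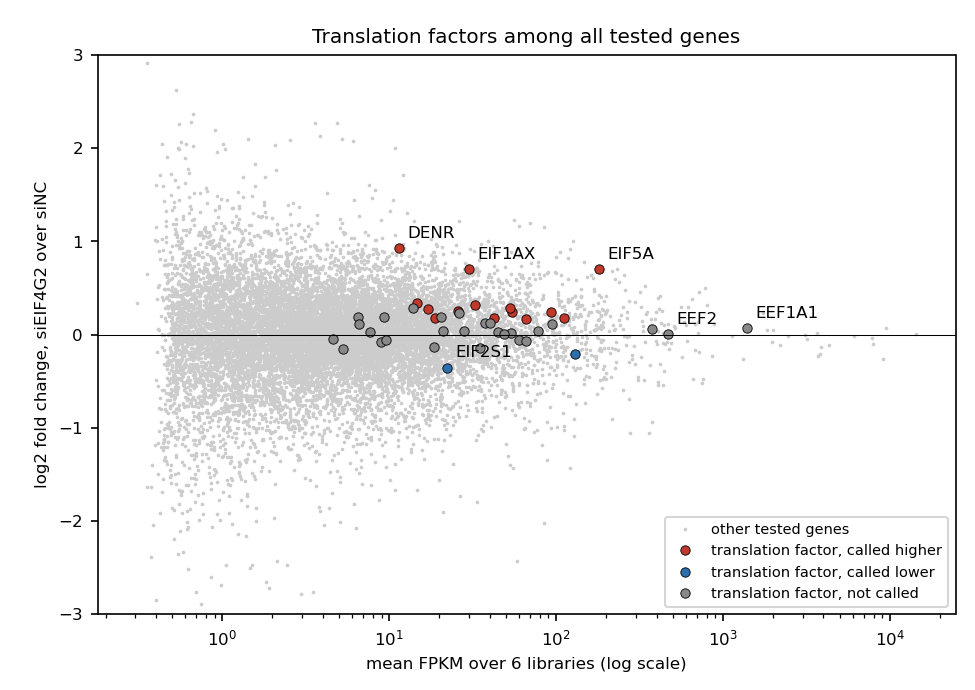
Log2 fold change (siEIF4G2 over siNC, vertical axis) against mean FPKM over the 6 libraries (horizontal axis, log scale) for all 13748 tested genes in grey and the 43 factors as larger points; 13 genes beyond ± 3 on the vertical axis are not shown. The factors sit in the upper range of levels, and most lie close to 0 on the vertical axis.

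The start of a messenger RNA bears on these genes, because those of the translation machinery often begin with a C followed by an unbroken run of pyrimidines, the terminal oligopyrimidine (TOP) tract through which mTOR signalling controls their translation. RefSeq windows on GRCh38.p14 were matched by symbol for 34 of the 43 factors and searched on the transcribed strand for a C at the annotated start followed by at least 4 bases that are each C or T. This run was present in 7 of 34, or 20.6%, in 4.04% of all 27305 windows and in 5.70% of the 9375 windows of tested genes. The 7 windows that hold it are shown first, then the 3 genes with the largest rises and the one with the largest fall, none of which holds it. Each window covers 5 bases before and 25 bases from the annotated start, 5′ to 3′, and capitals mark the pyrimidine run.
EEF1A1: acgttCTTTTTCgcaacgggtttgccgcca
EEF2: gcgttCTCTTCCgccgtcgtcgccgccatc
EIF3D: gtttcCTCTTTTCCTggtttctcaagagtg
EIF3F: gcctcCTTCTTTCTCgacaagatggccaca
EIF3K: accacCTCTTCCTgttcccgtccttgagga
EIF3M: gttccCTTTTCCggtcggcgtggtcttgcg
EIF2S3: ccttcCTCTTTTggcaacatggcgggcgga
EIF5A: acccgaccacactagcgcgctagaagagtg
EIF1AX: gcggcgccatttgctgccgccgagcgtgga
DENR: tcattgtctcgcgggagcgctgctggcggt
EIF2S1: tccgcatgcgcggtggagtgagcgaagcgc

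The windows lie at chr6:73521008-73521037, minus strand for EEF1A1, chr19:3985439-3985468, minus strand for EEF2, chr22:36529142-36529171, minus strand for EIF3D and chr11:7987332-7987361, plus strand for EIF3F. Those of EIF3K, EIF3M and EIF2S3 are at chr19:38619183-38619212, plus strand, chr11:32583826-32583855, plus strand and chrX:24054951-24054980, plus strand. Those without a run are at chr17:7306994-7307023, plus strand for EIF5A, chrX:20141814-20141843, minus strand for EIF1AX, chr12:122752819-122752848, plus strand for DENR and chr14:67360323-67360352, plus strand for EIF2S1. Of the 7 genes with a run, EIF2S3 was called and the other 6 were not, with log2 fold changes between -0.13 and 0.19. Of 12 matched factors that rose, 1 held the run, as did 0 of 2 that fell and 6 of 20 that were not called. These counts rest on the annotated start alone.

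A list of 9 factors widely described as TOP messenger RNAs, EEF1A1, EEF1B2, EEF1D, EEF1G, EEF2, PABPC1, EIF3E, EIF3F and EIF3H, held 1 called gene. This share of 11.1% compares with 33.4% of all tested genes. EEF1B2 rose, 8 were not called, and the median log2 fold change was 0.12, equal to that of all 43 factors. EEF1A1, EEF2 and EIF3F held the run at the annotated start, and EEF1B2 and EEF1G were matched but did not. EEF1D, PABPC1, EIF3E and EIF3H had no matched window. A factor without the run in this search may thus still be described as a TOP messenger RNA. Some other promoter words were searched on both strands from 250 bases before to 25 bases after the start. The E-box CACGTG was found in 17.6% of the members, 7.06% of all windows and 10.1% of those of tested genes. By call it was found in 0 of 12 factors that rose, 0 of 2 that fell and 6 of 20 not called. GGGCGG was found in 67.6% of the members, 43.5% of all windows and 69.9% of those of tested genes. CCGGAA was found in 44.1% of the members, 16.7% of all windows and 30.0% of those of tested genes. AAGATGG was found in 5.88% of the members, 4.90% of all windows and 5.76% of those of tested genes. Among the factors that rose, fell and were not called, GGGCGG was found in 8, 1 and 14. CCGGAA was found in 5, 1 and 9 of them, and AAGATGG in 1, 0 and 1. These are matches of letters, and a word that is absent here may lie outside the window.

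EIF2 brings the initiator transfer RNA to the ribosome, and EIF2B recharges EIF2 with GTP. Their 8 subunits gave 2 rises, 1 fall and 5 genes not called, so 37.5% were called, against 33.4% of all tested genes. The log2 fold changes of the 8 had a median of 0.073. EIF2S1, the alpha subunit whose phosphorylation shuts down general initiation in stress, lies at chromosome 14, 67360151 to 67386516, plus strand. It read 132, 128 and 126 CPM in siEIF4G2 libraries, against 170.2, 157 and 167 CPM in siNC libraries. The siEIF4G2 values were all below the siNC values, and EIF2S1 was 1.28-fold lower (log2 fold change -0.36, SE 0.047, edgeR adjusted p = 0.00287). EIF2S3, the GTP-binding gamma subunit, moved the other way, with 577, 584 and 568 CPM with siEIF4G2 and 505, 510.2 and 511 CPM with siNC. It was 1.13-fold higher, with narrow groups that lay apart (log2 fold change 0.18, SE 0.033, edgeR adjusted p = 0.00922). EIF2S2, the beta subunit, was not called at 181 ± 6.47 CPM in siEIF4G2 and 188 ± 9.75 CPM in siNC (log2 fold change -0.056, SE 0.054, edgeR adjusted p = 0.471). The interval of EIF2S2 overlaps that of RALY on the opposite strand, which holds counts equal to 69.2% of its own. Rows named as EIF2S2 pseudogenes held 6.52% to 8.68% as many counts. In level per length the gamma subunit was the highest of the 3 in both groups, with 119 ± 1.07 FPKM in siEIF4G2 and 103 ± 0.961 FPKM in siNC. EIF2S1 was the lowest, with 19.8 ± 0.573 FPKM in siEIF4G2 and 24.9 ± 0.972 FPKM in siNC.

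EIF2B1, the regulatory alpha subunit of EIF2B, rose to 86.0, 83.8 and 89.2 CPM in siEIF4G2 libraries, against 73.8, 77.0 and 78.7 CPM in siNC libraries (log2 fold change 0.17, SE 0.049, edgeR adjusted p = 0.0369). Its call is a narrow one, lost on leaving out any one of 5 of the 6 libraries (all but siEIF4G2 replicate 2), with adjusted p of 0.0558 to 0.112. Its interval also overlaps those of DDX55 and GTF2H3 on the opposite strand, which hold counts equal to 51.1% and 23.1% of its own, and the use of strand in counting is not given in the sources used here. EIF2B2, EIF2B3, EIF2B4 and EIF2B5, the other subunits, were not called, with log2 fold changes of 0.031, 0.19, -0.083 and 0.12. EIF2B4 differed little but cleanly in its ranges, at 54.8, 56.0 and 55.5 CPM with siEIF4G2 and 58.9, 58.8 and 58.4 CPM with siNC, so its groups did not overlap although its adjusted p was 0.180. EIF2B5, the catalytic subunit, had the lowest level per length of the 8, at 6.97 ± 0.474 FPKM in siEIF4G2 and 6.31 ± 0.294 FPKM in siNC. In CPM the lowest was EIF2B3, at 40.5 ± 5.03 CPM in siEIF4G2 and 35.4 ± 3.06 CPM in siNC.

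The proteins that write and erase the inhibitory phosphate on EIF2S1 mostly had lower messenger RNA too. Of 6 such genes, 5 fell, 0 rose and 1 was not called, and of all tested genes 17.6% fell. The median log2 fold change of the 6 was -0.31. EIF2AK2, the kinase PKR that senses double-stranded RNA and is itself induced by interferon, was at 115 ± 10.6 CPM in siEIF4G2 and 209 ± 4.52 CPM in siNC (log2 fold change -0.87, SE 0.072, edgeR adjusted p = 0.000708). EIF2AK3, the endoplasmic reticulum kinase PERK, was 1.33-fold lower (log2 fold change -0.41, SE 0.069, edgeR adjusted p = 0.00635). PPP1R15A, which directs a phosphatase to EIF2S1, was 1.27-fold lower (log2 fold change -0.35, SE 0.060, edgeR adjusted p = 0.00732). EIF2AK1 and PPP1R15B also fell, by 0.19 and 0.27 on the log2 scale, and EIF2AK4, the amino acid sensor GCN2, was not called (log2 fold change -0.039).

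EIF3 is the largest initiation factor and holds the small ribosomal subunit open to the messenger RNA. Of its 13 subunits, 2 rose, 1 fell and 10 were not called, so 23.1% were called, against 33.4% of all tested genes. Their median log2 fold change was 0.037. EIF3A, the scaffold subunit, read 499.9, 477 and 519 CPM in siEIF4G2 libraries, against 412, 403 and 444 CPM in siNC libraries. EIF3B, which forms the core with EIF3A, EIF3G and EIF3I, read 302, 314 and 297 CPM in siEIF4G2 libraries, against 264, 252 and 251 CPM in siNC libraries. In both genes each siEIF4G2 library was above each siNC library, and both were 1.19-fold higher (log2 fold change 0.25, SE 0.055, edgeR adjusted p = 0.0172 for EIF3A). The test for EIF3B gave nearly the same change with a smaller error (log2 fold change 0.25, SE 0.042, edgeR adjusted p = 0.00662). EIF3A lost its call without siEIF4G2 replicate 3, siNC replicate 1 or siNC replicate 2 (adjusted p = 0.0519, 0.0602 and 0.0583). The interval of EIF3B overlaps that of SNX8 on the opposite strand, which holds counts equal to 22.7% of its own.

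EIF3I, another subunit of that core and a WD-repeat protein, fell to 242, 256 and 244 CPM in siEIF4G2 libraries, against 277, 287 and 293 CPM in siNC libraries. The groups did not overlap, and EIF3I was 1.16-fold lower (log2 fold change -0.21, SE 0.043, edgeR adjusted p = 0.0133). EIF3G, the RNA-binding member of the core, was not called, at 123, 124 and 108 CPM with siEIF4G2 and 111, 95.3 and 96.1 CPM with siNC (log2 fold change 0.23, SE 0.085, edgeR adjusted p = 0.0839). Its siEIF4G2 replicate 3 lay below siNC replicate 1. Leaving out siNC replicate 1 brought its adjusted p to 0.0447.

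In the other EIF3 subunits the differences were small. EIF3D, which can itself bind the cap of some messenger RNAs, was at 246 ± 10.1 CPM in siEIF4G2 and 243 ± 9.23 CPM in siNC, with a log2 fold change of 0.018. EIF3J, EIF3K, EIF3L and EIF3C, further subunits, had log2 fold changes of 0.044, 0.0049, 0.037 and 0.024, none of them called. EIF3E and EIF3F were at 0.12 and 0.19, EIF3H and EIF3M at -0.14 and -0.13. EIF3E was higher in each siEIF4G2 library and EIF3H lower, without either being called (adjusted p = 0.146 for EIF3E). The nearest siEIF4G2 and siNC values were almost tied, at 269.8 and 269.6 CPM for EIF3E and 261.6 and 261.8 CPM for EIF3H. Leaving out siNC replicate 2 brought EIF3H to an adjusted p of 0.0373, with a log2 fold change of -0.19. The interval of EIF3J overlaps that of SPG11 on the opposite strand, which holds counts equal to 57.8% of its own.

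The row of EIF3C has a near copy, EIF3CL, on chromosome 16 as well, and reads may be split between them. EIF3CL read 449, 531 and 456 CPM in siEIF4G2 libraries, against 367, 376 and 382 CPM in siNC libraries, and it rose while EIF3C was not called, a difference that was not tested (log2 fold change 0.35, edgeR adjusted p = 0.0133). Summed, the pair had 839, 887 and 830.1 CPM in siEIF4G2 libraries, against 762, 741 and 725 CPM in siNC libraries. Fitted as a single gene, an alternative chosen after the values were seen, the pair gave a log2 fold change of 0.20 (edgeR adjusted p = 0.0155). The call for this subunit thus differs between the EIF3C row alone and the sum.

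The 13 subunits form one complex, yet their levels per length spanned a wide range. FPKM depends on the length set for each gene, which was not checked. EIF3F and EIF3J had like means in siEIF4G2, 77.8 ± 9.31 and 79.4 ± 0.580 CPM, but EIF3J had 21.4 ± 0.364 FPKM there. EIF3I was the highest, with 121 ± 1.80 FPKM in siEIF4G2 and 137 ± 4.35 FPKM in siNC, and EIF3F the lowest, with 6.96 ± 0.719 FPKM in siEIF4G2 and 5.99 ± 0.571 FPKM in siNC. EIF3L followed at 79.4 ± 6.89 FPKM in siEIF4G2 and 76.0 ± 4.66 FPKM in siNC. This order takes the EIF3C row alone, and EIF3CL stood at 132 ± 10.4 FPKM in siEIF4G2 and 102 ± 2.38 FPKM in siNC beside it. EIF3A, EIF3D, EIF3K and EIF3C lay close together, with means over the 6 libraries of 54.2, 53.7, 48.6 and 44.8 FPKM. EIF3A and EIF3D overlapped in their ranges over the libraries, so their order is within the spread. Rows named as EIF3F pseudogenes held counts equal to 14.8% to 24.4% of those of EIF3F. Over the 13 rows, EIF3CL not included, the summed level was 585 ± 9.52 FPKM in siEIF4G2 and 572 ± 12.5 FPKM in siNC.

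**Figure D3:**
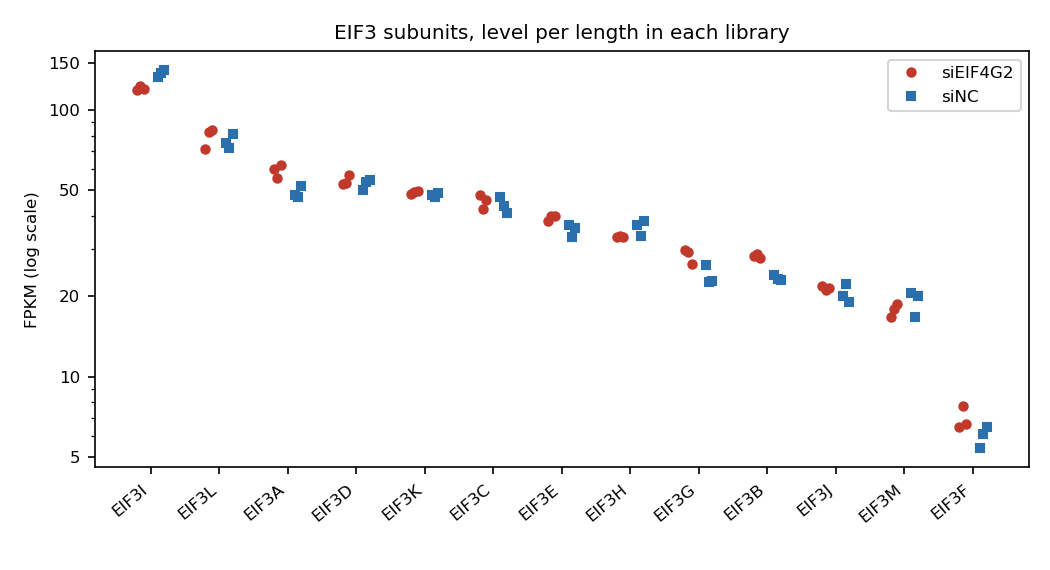
FPKM (log scale, vertical axis) of the 13 EIF3 subunits in each library, ordered by mean level, with siEIF4G2 libraries as circles left of siNC libraries as squares. EIF3CL is not shown. EIF3I is the highest of these rows and lower in siEIF4G2, EIF3A and EIF3B are higher in siEIF4G2, and EIF3F is lowest.

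EIF1 and EIF1AX hold the ribosome in its scanning state, EIF5 helps EIF2 to split its GTP, EIF5A relieves ribosomes stalled on difficult peptide bonds, and EIF6 keeps the large subunit from joining early. Of these 7 genes 3 rose, 0 fell and 4 were not called, so 42.9% were called, against 33.4% of all tested genes. Their log2 fold changes had a median of 0.17. EIF5A, whose protein carries the rare amino acid hypusine, lies at chromosome 17, 7306999 to 7312463, plus strand, and read 689, 756 and 707 CPM in siEIF4G2 libraries, against 406, 421 and 494 CPM in siNC libraries. All siEIF4G2 values were above all siNC values, and EIF5A was 1.63-fold higher (log2 fold change 0.70, SE 0.085, edgeR adjusted p = 0.00220). It kept its call under all 17 alternatives tried, with log2 fold changes between 0.65 and 0.80. A copy on chromosome 10, EIF5AL1, moved with it, at 47.8, 37.9 and 38.0 CPM in siEIF4G2 libraries, against 23.1, 27.8 and 24.5 CPM in siNC libraries. GPS2, on the opposite strand, overlaps EIF5A with counts equal to 12.9% of its own. Summed with EIF5AL1, EIF5A had a log2 fold change of 0.70 (edgeR adjusted p = 0.00179).

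EIF5A2, a second gene for the same kind of protein, fell. It averaged 7.12 ± 0.426 CPM in siEIF4G2 and 9.37 ± 1.04 CPM in siNC (log2 fold change -0.40, SE 0.12, edgeR adjusted p = 0.0457). The enzymes that make hypusine, DHPS and DOHH, were not called, with log2 fold changes of 0.35 and 0.027. In the wider list of hypusine and diphthamide synthesis, the modification of EEF2, 1 of 9 genes rose (11.1%, against 15.9% of all tested genes) and 0 fell. That gene was DPH2 (log2 fold change 0.34, SE 0.091, edgeR adjusted p = 0.0317).

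EIF1AX, which sits in the A site of the scanning ribosome, lies at chromosome X, 20124525 to 20141838, minus strand. It read 196, 189.6 and 199.8 CPM in siEIF4G2 libraries, against 119, 117 and 123 CPM in siNC libraries. The spread within each group was under 3% of its mean, the groups did not overlap, and EIF1AX was 1.63-fold higher (log2 fold change 0.70, SE 0.042, edgeR adjusted p = 0.000355). The rise was as large as that of EIF5A, and held under all 16 alternatives with log2 fold changes of 0.69 to 0.73. Rows named as its pseudogenes held counts equal to 8.01% to 10.2% of its own, and with them added the log2 fold change was 0.69.

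EIF1 and EIF1B are close paralogs that guard the choice of start codon. EIF1 read 302, 316 and 286 CPM in siEIF4G2 libraries, against 270.0, 271 and 262 CPM in siNC libraries, and its siEIF4G2 values were all higher (log2 fold change 0.17, SE 0.049, edgeR adjusted p = 0.0400). EIF1B, the less abundant at 13.9 FPKM over the 6 libraries against 65.7 FPKM for EIF1, read 36.1, 34.4 and 32.8 CPM in siEIF4G2 libraries, against 33.4, 26.2 and 25.2 CPM in siNC libraries. Its groups overlapped through siNC replicate 1, and EIF1B was not called (log2 fold change 0.28, SE 0.12, edgeR adjusted p = 0.119). Both calls are narrow. EIF1 missed the threshold on leaving out any one of 5 libraries (all but siEIF4G2 replicate 3), with adjusted p of 0.0797 to 0.105, and EIF1B passed without siNC replicate 1 (log2 fold change 0.42, adjusted p = 0.0180). The difference between the paralogs was not tested.

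EIF5, EIF5B and EIF6 were not called. EIF5B, the GTPase that joins the subunits, averaged 266 ± 13.7 CPM in siEIF4G2 and 259.9 ± 7.84 CPM in siNC (log2 fold change 0.035, SE 0.052). EIF6 read 113, 146 and 122 CPM with siEIF4G2 and 145, 126 and 128 CPM with siNC, with overlapping groups (log2 fold change -0.067, SE 0.11, edgeR adjusted p = 0.679). EIF5 had 97.4, 90.9 and 93.0 CPM with siEIF4G2 and 98.4, 112 and 81.8 CPM with siNC, and its siNC values enclosed all 3 siEIF4G2 values (log2 fold change -0.055, SE 0.11, edgeR adjusted p = 0.747).

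DENR and MCTS1 form a heterodimer that recycles small subunits and lets ribosomes start again after short upstream reading frames. DENR lies at chromosome 12, 122752824 to 122771064, plus strand, and read 54.0, 90.2 and 46.5 CPM in siEIF4G2 libraries, against 33.3, 31.3 and 35.8 CPM in siNC libraries. Each siEIF4G2 value was above each siNC value, but siEIF4G2 replicate 2 stood far above the other 2. DENR was 1.90-fold higher, with the largest error among the called genes (log2 fold change 0.93, SE 0.25, edgeR adjusted p = 0.0331). Its rise was the largest of the 43 with all libraries but not without siEIF4G2 replicate 2. There its log2 fold change was 0.59 (edgeR adjusted p = 0.0122), against 0.72 for EIF1AX and 0.66 for EIF5A. The call was lost without siNC replicate 1, 2 or 3, where the adjusted p was 0.0900, 0.0967 and 0.0729. MCTS1, its partner, was not called, at 57.8, 59.8 and 57.2 CPM with siEIF4G2 and 59.4, 61.6 and 59.5 CPM with siNC (log2 fold change -0.047, SE 0.046, edgeR adjusted p = 0.474). EIF2D, a single protein with parts related to both, rose (log2 fold change 0.27, SE 0.053, edgeR adjusted p = 0.0113).

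**Figure D4:**
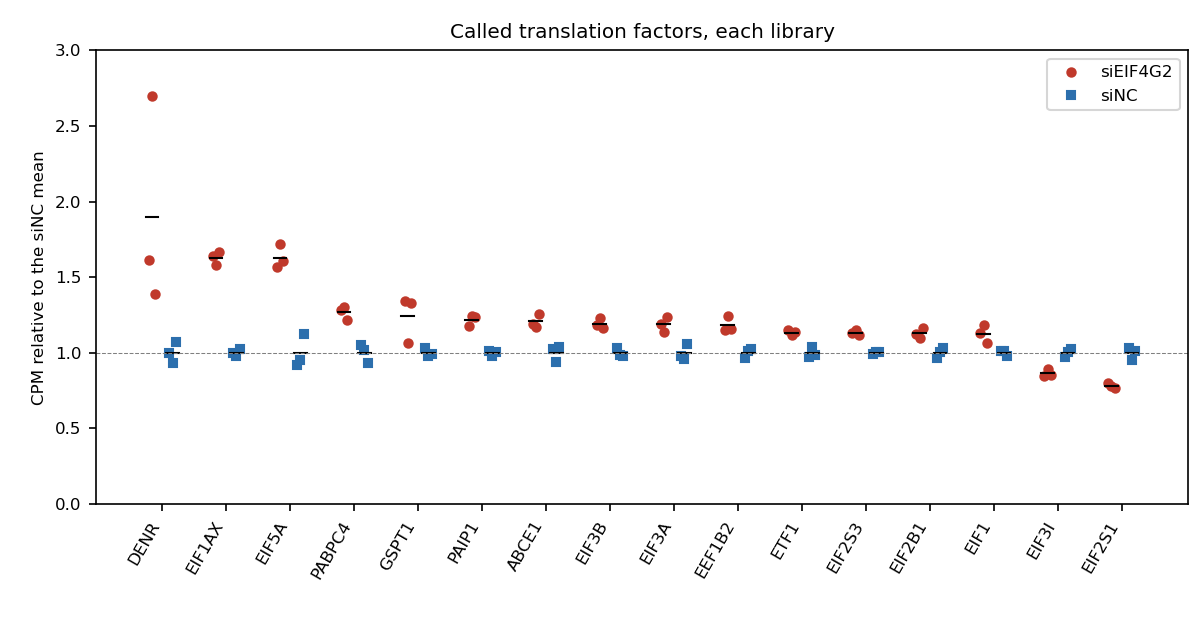
CPM of the 16 called factors in each library, divided by the gene's siNC mean (dashed line at 1), with siEIF4G2 libraries as circles left of siNC libraries as squares and black bars at the group means. The groups are apart in all 16 genes, and DENR has one siEIF4G2 library far above the other 2.

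Poly(A)-binding protein covers the tail of the messenger RNA and contacts EIF4G1, while PAIP1 stimulates and PAIP2 restrains it. Of these 4 genes 2 rose, 0 fell and 2 were not called, so 50% were called, against 33.4% of all tested genes. Their log2 fold changes had a median of 0.21. PABPC4, the less abundant binding protein, read 135, 138 and 129 CPM in siEIF4G2 libraries, against 111, 107 and 98.6 CPM in siNC libraries. The groups were well apart, and PABPC4 was 1.27-fold higher (log2 fold change 0.34, SE 0.059, edgeR adjusted p = 0.00699). PABPC1, the main form, read 464, 459 and 528 CPM in siEIF4G2 libraries, against 484, 418 and 437 CPM in siNC libraries, with overlapping groups (log2 fold change 0.12, SE 0.080, edgeR adjusted p = 0.309). Per length PABPC1 stood at 98.6 ± 8.67 FPKM in siEIF4G2 and 89.2 ± 6.54 FPKM in siNC, against 16.7 ± 0.439 FPKM in siEIF4G2 and 12.9 ± 0.733 FPKM in siNC for PABPC4.

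PAIP1 read 226, 238 and 238 CPM in siEIF4G2 libraries, against 195, 188 and 193 CPM in siNC libraries. It was 1.22-fold higher, with narrow groups that did not overlap (log2 fold change 0.28, SE 0.041, edgeR adjusted p = 0.00396). PAIP2 was also higher in every siEIF4G2 library, at 160.4, 156 and 155 CPM with siEIF4G2 and 136, 144 and 152 CPM with siNC, but was not called (log2 fold change 0.13, SE 0.052, edgeR adjusted p = 0.105). Beside them, PABPC4L, a PABPC4-like gene, rose (log2 fold change 0.52, SE 0.091, edgeR adjusted p = 0.00795) and PABPC1L fell (log2 fold change -0.43, SE 0.10, edgeR adjusted p = 0.0187).

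EEF1A1 brings aminoacyl transfer RNAs to the ribosome, EEF1B2, EEF1D and EEF1G recharge it, EEF2 translocates, and EEF2K is the kinase that switches EEF2 off. Of the 6 genes 1 rose, 0 fell and 5 were not called, so 16.7% were called, against 33.4% of all tested genes. Their log2 fold changes had a median of 0.066. EEF1A1, the most abundant of the 43 factors, read 8692, 9675 and 9487 CPM in siEIF4G2 libraries, against 8826, 8539 and 9211 CPM in siNC libraries, with overlapping groups (log2 fold change 0.068, SE 0.056, edgeR adjusted p = 0.394). Rows named as EEF1A1 pseudogenes, 39 in all and 20 of them with counts, held 14.0% to 18.5% as many counts as EEF1A1, so its level is uncertain to that extent. With them added the log2 fold change was 0.090. EEF2 was not called either, at 2231, 2343 and 2188 CPM with siEIF4G2 and 2291, 2239 and 2208 CPM with siNC (log2 fold change 0.0053, SE 0.041, edgeR adjusted p = 0.933). EEF2K, the lowest of the 6 in FPKM, read 49.4, 48.7 and 45.9 CPM with siEIF4G2 and 52.4, 58.6 and 49.4 CPM with siNC, lower in each siEIF4G2 library without being called (log2 fold change -0.16, SE 0.076, edgeR adjusted p = 0.169). In CPM siEIF4G2 replicate 1 lay barely under siNC replicate 3, at 49.39 against 49.44. In FPKM it lay above, at 5.24 against 5.12.

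EEF1B2 was the elongation factor that rose, with 224, 242 and 226 CPM in siEIF4G2 libraries, against 187, 197 and 199 CPM in siNC libraries. It was 1.19-fold higher and its groups were apart (log2 fold change 0.25, SE 0.049, edgeR adjusted p = 0.0121). Rows of its pseudogenes held 7.26% to 8.29% as many counts, and with them added the log2 fold change was 0.25. EEF1D was not called, at 262, 261 and 210.2 CPM with siEIF4G2 and 209.8, 222 and 210.0 CPM with siNC (log2 fold change 0.19, SE 0.093, edgeR adjusted p = 0.158). In siEIF4G2 replicate 3 it stood at the level of siNC, and without that library its log2 fold change was 0.29 (edgeR adjusted p = 0.0130).

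EEF1G varied within the groups more than between them. It read 1291, 1423 and 909.8 CPM in siEIF4G2 libraries, against 709, 1322 and 1437 CPM in siNC libraries (log2 fold change 0.064, SE 0.29, edgeR adjusted p = 0.890). The low libraries were siEIF4G2 replicate 3 and siNC replicate 1. A second row, AP002990, lies on the same strand of chromosome 11, covers nearly the whole EEF1G interval and extends beyond it. It is described as a further protein, with transcripts typed as retained intron and nonsense-mediated decay. AP002990 read 67.4, 31.2 and 386 CPM in siEIF4G2 libraries, against 550.0, 14.1 and 113 CPM in siNC libraries. It was high in the 2 libraries where EEF1G was low. The sum of both rows was far steadier, at 1359, 1454 and 1296 CPM in siEIF4G2 libraries, against 1259, 1336 and 1549 CPM in siNC libraries, with means of 1369.8 ± 79.7 CPM in siEIF4G2 and 1382 ± 151 CPM in siNC. Fitted as a single gene, again an alternative chosen after the values were seen, the pair had a log2 fold change of -0.012 (edgeR adjusted p = 0.928).

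**Figure D5:**
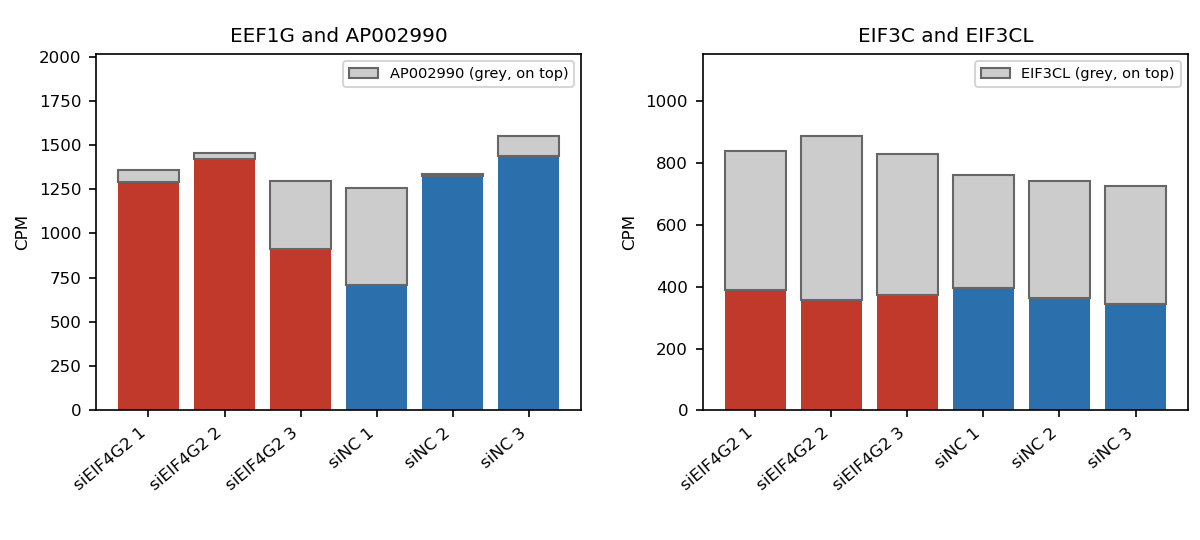
CPM in each library of EEF1G (left, coloured) with AP002990 stacked on it in grey, and of EIF3C (right, coloured) with EIF3CL stacked on it in grey; siEIF4G2 libraries are red and siNC libraries blue. The EEF1G row is low in siEIF4G2 replicate 3 and siNC replicate 1 while the stacked height varies less, and the EIF3C stack is taller in all 3 siEIF4G2 libraries.

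Among the paralogs and other cytosolic factors outside the 43, 13 genes were listed and 10 tested. Of these 10, 4 rose, 2 fell and 4 were not called, against 15.9% higher and 17.6% lower over all tested genes. Those with the smallest p were EEF1E1, a scaffold protein of the transfer RNA synthetase complex (log2 fold change 0.48, SE 0.047, edgeR adjusted p = 0.00112), PABPC4L and EIF2D. EEF1A2, the muscle and nerve form of EEF1A1, was not called at 227 ± 31.0 CPM in siEIF4G2 and 243 ± 12.9 CPM in siNC (log2 fold change -0.10, SE 0.10, edgeR adjusted p = 0.496). GSPT2, PABPC5 and PAIP2B were under the filter on low values.

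Termination was the subgroup in which every gene rose, 3 of 3, against 15.9% of all tested genes. With at least 5 FPKM required in 3 libraries, 1483 of 6626 genes rose. The log2 fold changes of the 3 termination factors had a median of 0.27. ETF1, which reads the stop codon, had 249, 243 and 246 CPM in siEIF4G2 libraries, against 212, 225 and 214 CPM in siNC libraries. It was 1.13-fold higher, with groups that did not overlap (log2 fold change 0.18, SE 0.041, edgeR adjusted p = 0.0180). ABCE1, the ATPase that splits ribosomes after release, had 137, 135 and 145 CPM in siEIF4G2 libraries, against 118, 108 and 119 CPM in siNC libraries. It was 1.21-fold higher and was called under all 15 alternatives (log2 fold change 0.27, SE 0.057, edgeR adjusted p = 0.0140). OTUD4, on the opposite strand, overlaps ABCE1 and holds counts equal to 51.6% of its own. GSPT1, the GTPase partner of ETF1, had 374, 297 and 371 CPM in siEIF4G2 libraries, against 287, 273 and 277 CPM in siNC libraries. Of its siEIF4G2 libraries replicate 2 stood near the siNC values and the other 2 well above (log2 fold change 0.32, SE 0.10, edgeR adjusted p = 0.0467).

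The calls of GSPT1 and ETF1 were close to the threshold. GSPT1 lost its call without siEIF4G2 replicate 1 or 3 (adjusted p = 0.121 and 0.125) and without siNC replicate 1, 2 or 3 (0.0938, 0.122 and 0.109). ETF1 lost it on leaving out replicate 1 or 3 of either group, with adjusted p of 0.0504 to 0.0641. In each of these fits both genes were still higher in siEIF4G2.

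Genes that rescue stalled ribosomes work on a process next to termination. Of 9 such genes 0 rose, 2 fell and 7 were not called, so 22.2% were called, against 33.4% of all tested genes. Their log2 fold changes had a median of -0.056. The falls were TCF25 (log2 fold change -0.23, SE 0.063, edgeR adjusted p = 0.0336) and ANKZF1 (log2 fold change -0.20, SE 0.058, edgeR adjusted p = 0.0400), which act on unfinished proteins at the split large subunit. PELO and HBS1L, relatives of ETF1 and GSPT1, had log2 fold changes of -0.078 and 0.093, neither called.

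Factors of the separate mitochondrial system gave 2 rises and 1 fall among 11 tested genes, at a median log2 fold change of 0.14. That is 27.3% called, against 33.4% of all tested genes. GFM1, an elongation factor, and MTIF2, an initiation factor, rose (log2 fold change 0.40, SE 0.057, edgeR adjusted p = 0.00393 for GFM1 and log2 fold change 0.29, SE 0.053, edgeR adjusted p = 0.00958 for MTIF2). MRRF, the ribosome recycling factor, fell (log2 fold change -0.43, SE 0.058, edgeR adjusted p = 0.00323). TUFM, the mitochondrial counterpart of EEF1A1, was higher in every siEIF4G2 library without being called (log2 fold change 0.20, SE 0.081, edgeR adjusted p = 0.110). Of 13 tested EIF4 factors, the group with the silenced gene in it, 3 rose, 4 fell including EIF4G2, and 6 were not called. In this list 53.8% were called, against 33.4% of all tested genes. Besides EIF4G2, those with the smallest p were EIF4EBP2, an inhibitor of EIF4E (log2 fold change -1.03), and EIF4H, a helper of the helicase EIF4A1 (log2 fold change -0.84), with edgeR adjusted p = 0.000207 and 0.000263.

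By summed level per length, the subgroup of EIF1, EIF5 and EIF6 came to 452 ± 13.6 FPKM in siEIF4G2 and 336 ± 10.9 FPKM in siNC. EIF5A was its most abundant gene, with 225 ± 7.48 FPKM in siEIF4G2 and 136 ± 14.95 FPKM in siNC. Termination factors summed to 101 ± 7.14 FPKM in siEIF4G2 and 83.6 ± 0.0651 FPKM in siNC. The poly(A)-binding subgroup summed to 216 ± 9.46 FPKM in siEIF4G2 and 187 ± 6.03 FPKM in siNC, and EIF2 with EIF2B to 252 ± 3.50 FPKM in siEIF4G2 and 238 ± 4.02 FPKM in siNC. Elongation factors summed to 2421 ± 95.5 FPKM in siEIF4G2 and 2277 ± 144 FPKM in siNC, so that their groups overlapped within the spread. That sum takes the EEF1G row without AP002990, and EEF1G was low in siEIF4G2 replicate 3 and siNC replicate 1, at 294 and 222 FPKM.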

How the data were processed

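Poly(A) RNA from 6 libraries, 3 per group, was sequenced as paired ends, per the labels' protocols. The authors deposited a table with a count and an FPKM value per gene and library; HISAT2 2.0 and StringTie 1.3.0 are listed, with no role, per the submitters' processing notes. Genome build and strand setting: not given in the sources used here. Deposited counts are whole numbers that behave as rounded estimated counts, and were used as such. All 43 gene intervals overlapped GENCODE release 29 on GRCh38, 16 with identical ends, and positions are therefore on GRCh38; start windows are RefSeq's.

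Rows sharing a symbol were reduced to the most abundant one, and genes reaching 0.5 FPKM in 3 or more libraries entered edgeR 4.0.16 (R 4.3.3, TMM, group only, two-sided). SE is the absolute log2 fold change over the square root of F. TMM factors were 0.985 to 1.02 and the common coefficient of biological variation 19.5%. Of the 43 factors, 28 overlap no other gene at 0.5 FPKM or more. No replicate pair agreed within sampling noise (chi-square per gene at least 68.5). In simulated data the edgeR test recovered 12% of 1.5-fold and 0% of 1.3-fold changes. That simulation held few changed genes, with 88 calls against 4597 here, so its adjusted threshold was stricter. It does not give the share of changes missed here. A count of 0 allows up to 3 counts, 0.0403 to 0.0466 CPM, for counting error only. All columns of sample values were mapped. DESeq2 1.42.0 and limma 3.58.1 served as alternatives, as did other scalings, level filters, a replicate block, summed rows, added pseudogene or near-copy counts, and leaving out each library; figures were drawn with matplotlib 3.10.9.

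The members and lists were chosen with earlier results of these data known. Named genes were every called member, paralog pairs, the highest and lowest uncalled member of a subgroup, EIF4G2, and up to 3 called genes with the smallest p of each list; other members were named to account for all 43, and other list genes, AP002990 and EIF5AL1 after their values were seen. Not every marker looked up is reported here.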

Additional observations from a re-analysis of the deposited data

How the results depend on the processing

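Of 663 values of single factors under alternatives, 604 kept direction and side of the threshold, 35 lost a call, 5 gained one and 19 changed sign, 0 of these in a called gene. All alternatives tried left 10 of the 16 calls in place, those of EIF1AX, EIF5A, EIF2S1, EIF2S3, EIF3B, EIF3I, PABPC4, PAIP1, EEF1B2 and ABCE1. The count of factors higher was 14, and 9 to 13 with one library left out, with 9 each without siNC replicate 2 and without siNC replicate 3; the count lower was 2, and 2 to 3 likewise. Without a level filter, 12 of the 43 were called, against 14.4% of genes, and EIF1, EIF2B1, DENR and GSPT1 lost their calls (adjusted p = 0.0762, 0.0636, 0.0514 and 0.0665), and with at least 5 FPKM 16 of 42, against 45.0%, with 1502 genes lower over all genes. Over all genes, leaving out one library gave 1567 to 1891 higher and 1785 to 2243 lower. In the pathway lists, 10 genes were higher and 14 lower, and 8 to 12 and 9 to 12 with one library left out, with 9 lower without siNC replicate 2. Library totals without scaling moved the median of all genes to 0.034 and the share of calls that were higher to 52.1%, against 47.5%, with the same 14 and 2 counts of factors.

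Signs turned only in uncalled genes near 0. With one library left out the log2 fold changes ran from -0.018 to 0.078 for EIF3C, -0.014 to 0.049 for EIF3D, -0.00095 to 0.11 for EIF3J, -0.012 to 0.026 for EIF3K, -0.0078 to 0.12 for EIF3L, -0.032 to 0.087 for EIF2B2, -0.16 to 0.057 for EIF5, -0.0082 to 0.065 for EIF5B, -0.18 to 0.016 for EIF6, -0.19 to 0.26 for EEF1G and -0.024 to 0.026 for EEF2. Summing EEF1G with AP002990, added after seeing the data, gave -0.012.

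Same-numbered replicates did not deviate together (correlations -0.030, 0.016 and 0.029), so the numbers are not taken to pair the libraries. With the replicate number as a block, 1726 genes were higher and 2010 lower, 10 factors higher and 2 lower, and 10 and 10 genes of the pathway lists; the calls lost were those of EIF2B1, DENR, ETF1 and GSPT1. GSPT1 also missed the threshold by limma on log2(FPKM + 1) and log2(FPKM + 0.1). With 3 libraries per group, genes that missed the threshold may still differ.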
